A study of Arabidopsis thaliana with 12 samples.

Results

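The transcripts of the chloroplast and mitochondrial genomes of Arabidopsis thaliana were described as the rows of a gene count table whose codes start with ATCG (chloroplast) or ATMG (mitochondrion) and whose counts sum to 120 or more over all libraries. This gave 115 of the 33602 rows of the table, 95 of the 133 chloroplast rows and 20 of the 146 mitochondrial rows. Of the other chloroplast rows, 5 had no count and 33 lay below the minimum; of the other mitochondrial rows, 48 had none and 78 lay below. The chloroplast member nearest the minimum had 124 counts and the highest row outside it 115, against 168 and 118 counts in the mitochondrion. All 115 members passed the filter on low counts and were tested. The 12 RNA-seq libraries came from full plants 2 weeks old, grown in soil, in 4 groups of 3 biological replicates per the design text. Col-0 is the reference accession, and rdd is a triple mutant, made in Col-0, in 3 genes for DNA demethylases (ROS1, DML2, DML3). Plants of each genotype grew in regular soil (control) or in soil treated with YC4-R4. By its title, the series concerns rhizobacteria that benefit the plant.

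Plant cells keep a genome of their own in chloroplasts and another in mitochondria, both remnants of bacteria taken up by an ancestor of the cell. The chloroplast genome encodes core subunits of the photosystems, of the ATP synthase and of the gene expression machinery, and the mitochondrial genome encodes core subunits of the respiratory chain and its ATP synthase. Nuclear genes supply the phage-type polymerases, the sigma factors that guide the bacterial-type plastid polymerase, and the proteins that process and protect organellar RNA. In plant organelles a poly(A) tail is a mark for decay rather than a stable end, so libraries of messenger RNA hold only a part of the organellar RNA. The sample titles call the libraries mRNA, but the method by which RNA was selected is not given in the sources used here.

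The count table carries codes and no gene names, and the reference annotation used here pairs names with 10 of the members, through its notes on nuclear genes. In the chloroplast these were ATCG01310 (ribosomal protein L2), ATCG00660 (ribosomal protein L20), ATCG00750 (ribosomal protein S11), ATCG00670 (plastid-encoded CLP P, a subunit of the stromal protease), ATCG00530 (a CemA-like protein related to proton extrusion) and ATCG00430. The annotation calls ATCG00430 photosystem II reaction center protein G, in a note on AT5G11770, a nuclear subunit of respiratory complex I. In the mitochondrion they were ATMG01190 (ATP synthase subunit 1), ATMG01080 and ATMG01090 (both ATP synthase subunit 9) and ATMG00980 (a ribosomal protein of the S12/S23 family). All other members are given by count, with at most 2 codes that were higher and 2 that were lower in a comparison, and no role is given to these codes. Rows for ribosomal RNA and transfer RNA were not set apart from those for messenger RNA, so such rows may be among the members.

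Organellar reads can belong to more than 1 copy. In the TAIR10.1 reference, 33.897% of the 100-base windows of the chloroplast genome recurred in that genome and 0.51% recurred in the nuclear chromosomes. Of the mitochondrial windows, 7.512% recurred in the mitochondrial genome and 67.636% in the nuclear chromosomes. How the counting treated such reads is not given in the sources used here, so the count of a member with a second copy is uncertain. Which codes are copies of one another was not determined, so codes named side by side below may not be separate genes. The nuclear genes noted beside ATMG00980 (AT2G07675) and ATMG01080 (AT2G07671) had 100% of their windows in the mitochondrial genome, that beside ATMG01190 (AT2G07698) 96.1% and that beside ATMG01090 (AT2G07777) 85.4%.

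Library totals ran from 14465710 to 20281801 counts. The genotype labels were not borne out by the transcripts of the mutated genes. ROS1 stood at 82.0 ± 3.94 CPM (counts relative to the TMM-adjusted library size, mean ± SD, n = 3) in libraries labelled Col-0 control and at 79.9 ± 2.23 CPM where the label was rdd control. DML3 stood at 4.97 ± 0.794 and 3.52 ± 0.137 CPM in these groups and at 0.775 ± 0.403 and 0.599 ± 0.343 CPM in the libraries labelled Col-0 YC4-R4 and rdd YC4-R4. Which transcripts the mutant alleles leave is not given in the sources used here, so every genotype below is that of a label. All 12 samples are whole plants, so fewer green cells and less organellar RNA per cell cannot be told apart.

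The chloroplast members took their highest share of the counts in untreated Col-0. They held 1.2045%, 1.33% and 1.33% of the counts of the libraries labelled Col-0 control, and 1.11%, 1.04% and 1.01% of those labelled Col-0 YC4-R4. The rdd control libraries held 1.14%, 1.08% and 0.969%. In rdd YC4-R4 the 3 libraries held 0.922%, 1.07% and 1.26%, a range that spans nearly all the others. The Col-0 control libraries lay above every Col-0 YC4-R4 and every rdd control library, while the rdd YC4-R4 libraries overlapped all 3 other groups. The mean share was 1.29% ± 0.0707 (SD, n = 3) for Col-0 control, 1.05% ± 0.0485 for Col-0 YC4-R4, 1.06% ± 0.0862 for rdd control and 1.09% ± 0.170 for rdd YC4-R4. A two-sided exact permutation test gave p = 0.1 for Col-0 YC4-R4 against Col-0 control and for rdd control against Col-0 control, the smallest p that 3 against 3 libraries allow. The exact p was 1.0 for YC4-R4 in rdd and 0.8 for rdd against Col-0 in the YC4-R4 libraries, and without rdd YC4-R4 replicate 3 these differences turned from 0.0231 and 0.0324 to -0.0648 and -0.0555 percentage points.

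Mitochondrial members took a far smaller share, with a similar order of the groups. They held 0.0317%, 0.0310% and 0.0339% of the counts of libraries labelled Col-0 control and 0.0234%, 0.0221% and 0.0226% of Col-0 YC4-R4 libraries. The values were 0.0245%, 0.0237% and 0.0237% for rdd control and 0.0270%, 0.0235% and 0.0322% for rdd YC4-R4. Again the Col-0 control libraries lay above both Col-0 YC4-R4 and rdd control, and rdd YC4-R4 had the widest range. The share in Col-0 YC4-R4 was 0.706 times that in Col-0 control, and the share in rdd control 0.745 times, each with no overlap and exact p = 0.1. On raw library totals the rdd YC4-R4 libraries also lay above all Col-0 YC4-R4 libraries, with a ratio of 1.21 (exact p = 0.1), although the lowest of them exceeded the highest Col-0 YC4-R4 library only by 0.0235% against 0.0234%. They overlapped on TMM-adjusted library sizes (lowest 0.0227% against highest 0.0231%, exact p = 0.2) and without the most counted member (0.0104% against 0.0110%, exact p = 0.6). For YC4-R4 against control in rdd the exact p was 0.4.

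**Figure D1:**
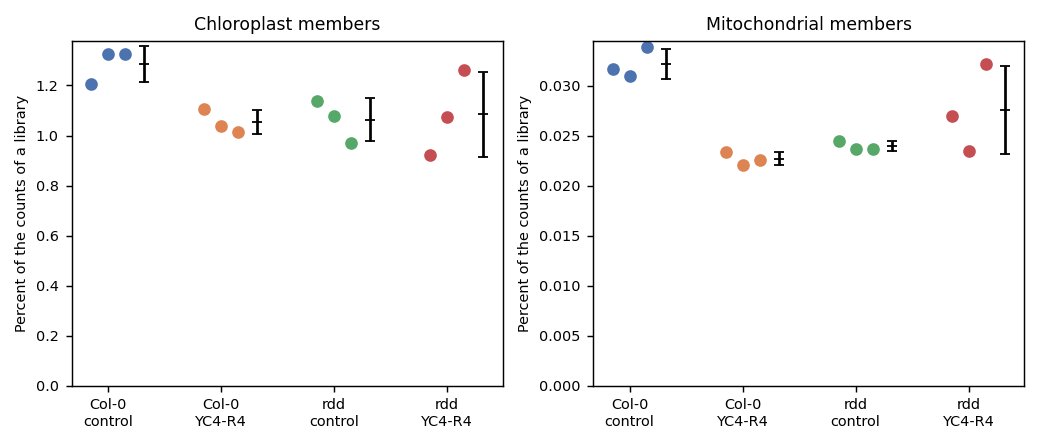
Share of the counts of each library (percent, vertical axis from 0) in the 95 chloroplast members (left) and the 20 mitochondrial members (right). Points are libraries and bars are mean ± SD of the 3 libraries of a group. The Col-0 control libraries lie above those of Col-0 YC4-R4 and rdd control in both panels, and the rdd YC4-R4 libraries are the most spread.

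Counts were concentrated on few rows. The most counted chloroplast member held 28.7% of the chloroplast counts, the first 5 held 68.1% and the first 10 held 82.0%. In the mitochondrion ATMG00020 alone held 53.9%, and ATMG00020 and ATMG01390 together 88.3%. The mean level over all libraries ran from 0.584 to 3240 CPM in chloroplast members, with a median of 10.6 CPM, and from 0.791 to 144 CPM in mitochondrial members, with a median of 1.56 CPM. The shares above are thus those of a few transcripts, and members are described one by one below.

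In libraries labelled Col-0, chloroplast transcripts fell widely with YC4-R4 and none was called higher. Calls rest on edgeR's quasi-likelihood test at an adjusted p under 0.05 (Benjamini-Hochberg, 20651 genes tested). Of the 95 chloroplast members, 51 were called lower and 0 higher, against 16.9% and 12.9% of all tested genes; at an unadjusted p under 0.05 these were 61 and 0, and DESeq2 called 38 and 0. The log2 fold change was negative in 91 members, with a median of -0.34 against 0.00 over all tested genes. The 2 lowest were ATCG00920 and ATCG01210. ATCG01210 stood at 126, 96.4 and 194 CPM in Col-0 control and at 33.9, 35.6 and 34.2 CPM in Col-0 YC4-R4, so that even the lowest control library stood far above the treated ones. Its log2 fold change was -2.00 ± 0.235 (SE; adjusted p = 1.2e-08). ATCG00920 went from 12.5, 11.3 and 26.7 CPM to 3.17, 3.87 and 5.18 CPM, a log2 fold change of -2.05 ± 0.281 (adjusted p = 3e-07), again with no overlap. In both, replicate 3 was the highest control library.

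The chloroplast members with a name lay around the median of all 95 chloroplast members (-0.34), with log2 fold changes from -0.55 to -0.23. Among the ribosomal proteins of the organelle, ATCG00750 (S11) stood at 41.7, 48.2 and 42.1 CPM in Col-0 control and 35.9, 33.9 and 39.5 CPM in Col-0 YC4-R4, and fell by 0.28 on the log2 scale (SE 0.084, adjusted p = 0.011). ATCG00660 (L20) and ATCG01310 (L2) were not called, at -0.23 ± 0.175 and -0.36 ± 0.181 (adjusted p = 0.34 and 0.14), and their libraries overlapped. ATCG00670 (CLP P) stood at 44.2, 53.2 and 45.3 CPM against 40.9, 40.1 and 40.4 CPM, and fell by 0.23 (SE 0.068, adjusted p = 0.0086). The protease transcript was thus lower in every treated library, by a margin smaller than the spread between control libraries. ATCG00530 (CemA-like) stood at 21.3, 24.3 and 22.7 CPM against 16.7, 14.1 and 15.6 CPM, a log2 fold change of -0.55 ± 0.083 (adjusted p = 1.7e-06). ATCG00430 stood at 424, 474 and 436 CPM against 367, 371 and 334 CPM, a log2 fold change of -0.32 ± 0.063 (adjusted p = 0.00013). The calls of ATCG00750 and ATCG00670 were lost without Col-0 control replicate 2 (-0.20 and -0.14), that of ATCG00750 also without Col-0 YC4-R4 replicate 2 (-0.23) and with DESeq2 (-0.27).

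These changes are against the whole library. When the chloroplast members themselves were the library size, the median over all tested genes moved to 0.39, that of the chloroplast members to 0.04, and 13 members were called lower and 1 higher. On that scale the values of ATCG00430 (0.08), ATCG00670 (0.16) and ATCG00750 (0.12) turned positive, none of them called, and that of ATCG00530 was -0.17 and no longer called. ATCG00920 and ATCG01210 were called lower on both scales.

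**Figure D2:**
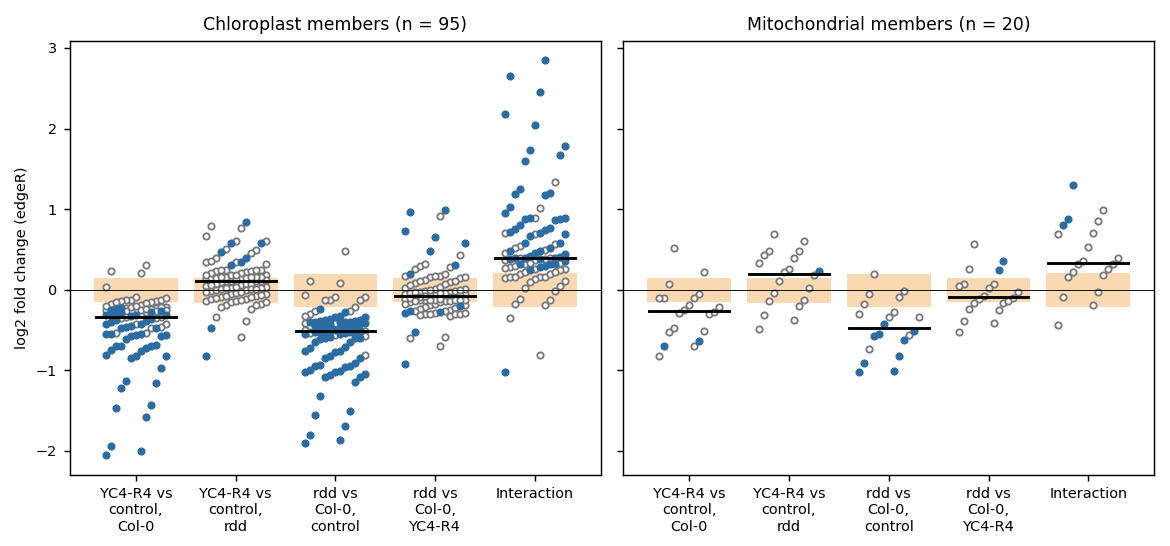
Log2 fold change (edgeR) of each chloroplast member (left, n = 95) and each mitochondrial member (right, n = 20) in 5 comparisons; the interaction is the rdd effect less the Col-0 effect of YC4-R4. Filled points are called at an adjusted p under 0.05, black lines are medians of the members and shaded boxes the middle 50% of all tested genes. In the chloroplast the medians are -0.34, 0.11, -0.51, -0.08 and 0.40 from left to right.

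Chloroplast members did not fall to the same degree. In this comparison 9 of the 95 were called lower by at least 1 log2 unit, against 2.31% of all tested genes, and 86 were not. Being chosen by this comparison, the 9 are given as a description. Together they stood at 653, 594 and 1030 CPM in libraries labelled Col-0 control and at 279, 262 and 284 CPM in Col-0 YC4-R4, while the other 86 stood at 12000, 13500 and 13000 CPM and at 10600, 9950 and 9670 CPM. In libraries labelled rdd control the 9 stood at 329, 290 and 273 CPM, and in rdd YC4-R4 at 440, 265 and 626 CPM. Replicates 1 and 3 of rdd YC4-R4 thus lay above all 3 rdd control libraries and replicate 2 below all of them. The 86 others ran differently there, at 8540, 10100 and 11600 CPM, with replicate 1 the lowest.

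The rdd libraries took no part in choosing these 9, other than through the estimate of spread that all groups share. With YC4-R4 in rdd, 3 of the 9 were called higher and 0 lower, against 15.1% and 17.1% of all tested genes, with log2 fold changes from 0.06 to 0.84 and a median of 0.57. Of these 3 calls, those of ATCG01210 and ATCG01180 were lost without rdd YC4-R4 replicate 3 (0.46 and 0.23) and with DESeq2 (0.83 and 0.57). Among members at 5 CPM or more, the SD of log2(CPM + 1) between the rdd YC4-R4 libraries ran from 0.513 to 1.08 over 8 of the 9 (median 0.700) and from 0.0581 to 0.481 over 52 others (median 0.264). Between the rdd control libraries the medians were 0.209 and 0.112. The 9 also varied in Col-0 control, where their sum ran from 594 to 1030 CPM, against 12000 to 13500 CPM for the other 86. So the transcripts that differed most between the Col-0 groups were also those that varied most between replicates of rdd YC4-R4. Across these 60 members, which share libraries and differ in level, Spearman's rho between the Col-0 fold change and that SD was -0.29, and it was -0.04 with the SD in rdd control.

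**Figure D3:**
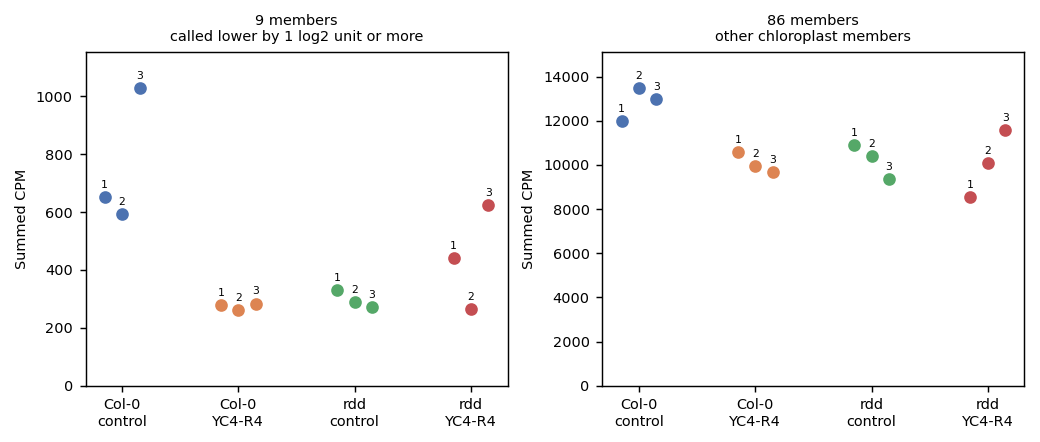
Summed CPM per library (vertical axes from 0) of the 9 chloroplast members called lower by 1 log2 unit or more with YC4-R4 in Col-0 (left) and of the other 86 (right); numbers are replicates. The 9 were chosen on the 6 Col-0 libraries. In rdd YC4-R4 they stand at 440, 265 and 626 CPM, while the other 86 stand at 8540, 10100 and 11600 CPM.

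Without treatment, chloroplast transcripts were lower in libraries labelled rdd than in those labelled Col-0. This comparison uses the same Col-0 control libraries as the last, so the 2 are not independent. Of the 95 members, 72 were called lower and 0 higher, against 23.0% and 20.9% of all tested genes; at an unadjusted p under 0.05 these were 78 and 0, and DESeq2 called 60 and 0. The median log2 fold change was -0.51, and 15 members were called lower by at least 1 log2 unit, against 2.77% of all tested genes. The 2 lowest were ATCG00350 and ATCG01210. ATCG00350 stood at 25.1, 21.5 and 22.8 CPM in Col-0 control and at 5.59, 8.13 and 4.79 CPM in rdd control, with a log2 fold change of -1.90 ± 0.216 (adjusted p = 3.3e-09). ATCG01210 stood at 44.4, 37.0 and 33.7 CPM in rdd control, with a log2 fold change of -1.86 ± 0.231 (adjusted p = 2.3e-08). Neither overlapped with Col-0 control.

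All 6 named chloroplast members were called lower in rdd control. The ribosomal protein ATCG00750 (S11) stood at 36.2, 30.1 and 27.5 CPM there, a log2 fold change of -0.50 ± 0.086 (adjusted p = 7.9e-06). ATCG00660 (L20) went from 3.62, 4.54 and 4.41 CPM in Col-0 control to 3.41, 2.62 and 2.64 CPM, a log2 fold change of -0.54 ± 0.182 (adjusted p = 0.014). ATCG01310 (L2) went from 108, 82.4 and 106 CPM to 92.1, 75.2 and 41.6 CPM, with overlap, at -0.52 ± 0.184 (adjusted p = 0.02). The L2 transcript is the least certain of the 6, since its rdd control libraries differed more than 2-fold. Its call was lost without Col-0 control replicate 1 (-0.45), Col-0 control replicate 3 (-0.47) or rdd control replicate 3 (-0.25) and with DESeq2 (-0.51). That of ATCG00660 was lost without Col-0 control replicate 2 (-0.48), rdd control replicate 2 (-0.48) or rdd control replicate 3 (-0.49). ATCG00670 (CLP P) stood at 38.8, 38.8 and 35.1 CPM in rdd control (-0.34 ± 0.069, adjusted p = 9.9e-05) and ATCG00530 (CemA-like) at 17.1, 18.2 and 15.6 CPM (-0.42 ± 0.082, adjusted p = 5.6e-05). ATCG00430 stood at 348, 342 and 317 CPM (-0.41 ± 0.063, adjusted p = 1.5e-06). These 3 had no overlap with Col-0 control. With the chloroplast members as library size, where the median of all tested genes moved to 0.38, 25 members were called lower and 3 higher, and none of the 6 named members was called; ATCG00670 turned to 0.03.

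In rdd, YC4-R4 moved few chloroplast transcripts, and replicates disagreed. Of the 95 members, 7 were called higher and 2 lower, against 15.1% and 17.1% of all tested genes, with a median log2 fold change of 0.11. These shares of the members are below those of all genes. With the chloroplast members as library size 8 were called higher and 1 lower. The 2 highest without overlap were ATCG00040 and ATCG00120. ATCG00040 went from 9.48, 10.3 and 8.81 CPM in rdd control to 11.5, 13 and 15 CPM in rdd YC4-R4 (0.47 ± 0.121, adjusted p = 0.0023), and ATCG00120 from 7.37, 6.87 and 6.88 CPM to 8.22, 8.06 and 11.2 CPM (0.39 ± 0.128, adjusted p = 0.017). The 2 lower members were ATCG01300 and ATCG00630. ATCG01300 went from 1.57, 1.68 and 1.38 CPM to 1.01, 0.801 and 0.817 CPM (-0.82 ± 0.283, adjusted p = 0.024), and ATCG00630 from 123, 119 and 115 CPM to 60.8, 104 and 91.7 CPM (-0.47 ± 0.098, adjusted p = 0.00024). None of the 6 named members was called in either direction. The call of ATCG00120 was lost without rdd control replicate 2 (0.37) or 3 (0.38) or rdd YC4-R4 replicate 3 (0.21), and with the chloroplast members as library size (0.37). That of ATCG01300 was lost without rdd control replicate 1 (-0.81) or 2 (-0.75) or rdd YC4-R4 replicate 2 (-0.76) or 3 (-0.77), with the chloroplast members as library size (-0.82) and with DESeq2 (-0.82).

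Single libraries decided much of this comparison. Without rdd YC4-R4 replicate 1, 25 chloroplast members were called higher and 2 lower, without replicate 2, 19 and 3, and without replicate 3, 1 and 8. Without rdd control replicate 3 the counts were 3 and 4. The 9 calls of the full comparison thus stand for 3 treated libraries that lay far apart. The median SD of log2(CPM + 1) of the 49 chloroplast members at 10 CPM or more was 0.282 in rdd YC4-R4, against 0.119 for Col-0 control, 0.0828 for Col-0 YC4-R4 and 0.112 for rdd control. Over all 12945 tested genes at that level it was 0.0723 in rdd YC4-R4 and from 0.0565 to 0.0607 in the other groups. The replicates of rdd YC4-R4 therefore differed more in chloroplast transcripts than in most others. What sets them apart was not tested.

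Among libraries with YC4-R4, rdd and Col-0 hardly differed in chloroplast transcripts. Of the 95 members, 8 were called higher in rdd and 6 lower, against 14.3% and 14.4% of all tested genes, and the median log2 fold change was -0.08. With the chloroplast members as library size 6 were called higher and 2 lower, and DESeq2 called 0 higher and 2 lower. The highest without overlap was ATCG01180, at 150, 133 and 143 CPM in Col-0 YC4-R4 and 210, 162 and 333 CPM in rdd YC4-R4 (0.73 ± 0.149, adjusted p = 0.00021), a call lost with DESeq2 (0.72). ATCG00680 followed at 19.9, 18.5 and 18.1 CPM against 20.5, 20.1 and 28.8 CPM (0.30 ± 0.098, adjusted p = 0.018). Its rdd libraries lay above those of Col-0 by a narrow margin except in replicate 3, and the call was lost without that library (0.10), without Col-0 YC4-R4 replicate 2 (0.29) or 3 (0.27), with the chloroplast members as library size (0.27) and with DESeq2 (0.29). Lowest were ATCG01300, at 1.53, 2.00 and 1.45 CPM in Col-0 YC4-R4 (-0.92 ± 0.28, adjusted p = 0.011), and ATCG00840, at 5.06, 6.19 and 4.74 CPM against 3.21, 3.95 and 3.89 CPM (-0.52 ± 0.16, adjusted p = 0.012). The call of ATCG01300 was lost without Col-0 YC4-R4 replicate 2 (-0.78). That of ATCG00840 was lost without the same library (-0.41), without rdd YC4-R4 replicate 1 (-0.44) and with the chloroplast members as library size (-0.55). Here too rdd YC4-R4 replicate 3 weighed most: without it, 1 member was called higher and 27 lower. Without rdd YC4-R4 replicate 1 the counts were 12 and 2, and without replicate 2 they were 11 and 10. Leaving out Col-0 YC4-R4 replicate 1, 2 or 3 gave 5 and 3, 2 and 4, and 4 and 4.

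The effect of YC4-R4 on chloroplast transcripts differed between the genotype labels. The interaction, how far the log2 effect in rdd exceeded the one in Col-0, was called positive for 49 of the 95 members and negative for 1, against 16.2% and 14.4% of all tested genes, with a median of 0.40. It uses the libraries of the comparisons above again, Col-0 control among them, so it is not independent of those. ATCG01210 had the highest value, 2.85 ± 0.338 (adjusted p = 1.7e-08), followed by ATCG00920 at 2.65 ± 0.41 (adjusted p = 3e-06). ATCG01210 stood at 81.9, 24.1 and 98.6 CPM in rdd YC4-R4 and ATCG00920 at 10.6, 3.04 and 9.91 CPM, so that in both replicates 1 and 3 stood above rdd control and replicate 2 below it. Of the named members, ATCG00430 (0.38 ± 0.089, adjusted p = 0.00084), ATCG00530 (0.40 ± 0.12, adjusted p = 0.0096) and ATCG00750 (0.41 ± 0.121, adjusted p = 0.0097) were called. Their Col-0 effects were called and their rdd effects were not (0.07, -0.15 and 0.13). Without rdd YC4-R4 replicate 3 the counts were 30 and 1, and DESeq2 called 30 and 0. The call of ATCG00430 was lost with DESeq2 (0.38), and that of ATCG00750 with DESeq2 (0.39), without rdd control replicate 3 (0.32) and without rdd YC4-R4 replicate 3 (0.26). With the chloroplast members as library size, which moved the median of all tested genes to -0.38, 13 were called positive and 3 negative, ATCG00530 stood at 0.02 and was not called, and ATCG00430 (-0.01) and ATCG00750 (-0.000654) were also not called.

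Set side by side, the groups shared their highest but not their lowest place in most chloroplast members. Col-0 control had the highest group mean in 89 of 95, Col-0 YC4-R4 in 3, rdd control in 2 and rdd YC4-R4 in 1; among all tested genes Col-0 control had it in 27.7%. The lowest mean lay in rdd control in 50 members, in rdd YC4-R4 in 29, in Col-0 YC4-R4 in 16 and in Col-0 control in none. In 39 of 95 members all 3 Col-0 control libraries stood above all 9 others, against 11.1% of all tested genes.

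The 20 mitochondrial members formed a pair of abundant rows, whose type of RNA was not determined, and 18 scarce ones. ATMG00020 and ATMG01390, which the sources used here give no name, summed to 296, 292 and 323 CPM under the label Col-0 control and to 200, 185 and 190 CPM under Col-0 YC4-R4. They summed to 217, 205 and 208 CPM under rdd control and to 233, 199 and 283 CPM under rdd YC4-R4. The other 18 together stood at 36.3, 37.2 and 36.6 CPM, at 30.8, 33.3 and 31.3 CPM, at 25.2, 30.0 and 28.4 CPM and at 29.9, 28.4 and 30.5 CPM, with groups ordered as before. Both sums were highest in Col-0 control, with no overlap with any other group. Among the other groups, the pair had its lowest mean in Col-0 YC4-R4 (192 ± 7.64 CPM) and the 18 theirs in rdd control (27.8 ± 2.44 CPM).

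With YC4-R4 in Col-0, 2 of the 20 mitochondrial members were called lower and 0 higher, against the 16.9% and 12.9% of all tested genes given above; at an unadjusted p under 0.05 these were 5 and 0, and DESeq2 called 2 and 0. The 2 were the abundant ones. ATMG00020 went from 174, 175 and 199 CPM to 122, 111 and 117 CPM (-0.64 ± 0.062, adjusted p = 1.3e-10) and ATMG01390 from 122, 118 and 124 CPM to 77.6, 73.2 and 73.5 CPM (-0.70 ± 0.082, adjusted p = 1.4e-08), both without overlap. Counts of the 18 others were low, and their values scattered around the median of all 20, -0.26. The transcript of ATP synthase subunit 1, ATMG01190, stood at 1.24, 1.29 and 1.63 CPM in Col-0 control and 0.971, 0.5 and 0.822 CPM in Col-0 YC4-R4 without overlap, yet was not called (-0.83 ± 0.339, adjusted p = 0.064). It rested on 8 to 27 counts a library in these 2 groups. Of the subunit 9 rows, ATMG01090 stood at -0.70 ± 0.308 (adjusted p = 0.082) and ATMG01080 at -0.10 ± 0.306 (adjusted p = 0.84), and the ribosomal protein row ATMG00980 stood at 0.07 ± 0.22 (adjusted p = 0.84). With the mitochondrial members as library size, which is largely that pair, the median over all tested genes moved to 0.61 and 3 members were called higher and 0 lower, with ATMG00020 (-0.04) and ATMG01390 (-0.09) no longer called.

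Between untreated rdd and Col-0, 9 of the 20 mitochondrial members were called lower and 0 higher, against 23.0% and 20.9% of all tested genes, with 10 and 0 at an unadjusted p under 0.05 and 5 and 0 by DESeq2. The median was -0.47. The lowest were ATMG00650, at 1.6, 1.46 and 2.05 CPM in Col-0 control and 1.16, 0.734 and 0.661 CPM in rdd control (-1.02 ± 0.298, adjusted p = 0.0051), and ATMG00520, at 1.24, 0.897 and 0.906 CPM against 0.682, 0.367 and 0.496 CPM (-1.01 ± 0.37, adjusted p = 0.025). Neither overlapped between the groups, at levels near 1 CPM. Of the ATP synthase rows ATMG01080 was called, at 0.930, 1.23 and 0.906 CPM against 0.546, 0.525 and 0.551 CPM (-0.91 ± 0.343, adjusted p = 0.029). The nuclear gene AT2G07671, noted beside it, has all its windows in the mitochondrial genome, so the reads of the pair may be shared. ATMG01190 (-0.74 ± 0.334), ATMG01090 (-0.56 ± 0.301) and ATMG00980 (-0.30 ± 0.23) were not called (adjusted p = 0.072, 0.13 and 0.31). ATMG00020 stood at 130, 123 and 129 CPM in rdd control (-0.52 ± 0.061, adjusted p = 8.5e-09) and ATMG01390 at 86.8, 82.8 and 78.6 CPM (-0.55 ± 0.081, adjusted p = 6e-07), both below Col-0 control without overlap. The call of ATMG01080 was lost without Col-0 control replicate 2 (-0.76) or rdd control replicate 1 (-0.92), 2 (-0.89) or 3 (-0.93), with no filter (-0.92) and with DESeq2 (-0.93). That of ATMG00520 was lost without Col-0 control replicate 1 (-0.84) or rdd control replicate 2 (-0.81) or 3 (-1.004) and with DESeq2 (-1.01). Leaving out Col-0 control replicate 1 or rdd control replicate 3 left 5 calls each. With the mitochondrial members as library size, where the median of all genes moved to 0.52, 2 members were called higher and 0 lower, and none of the 5 codes just named as called was called (-0.51, -0.50, -0.41, -0.000531 and -0.04 for ATMG00650, ATMG00520, ATMG01080, ATMG00020 and ATMG01390).

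With YC4-R4 in rdd, 1 of the 20 mitochondrial members was called higher and 0 lower, against 15.1% and 17.1% of all tested genes; 3 and 0 passed an unadjusted p of 0.05, and DESeq2 called 0 and 0. The 1 was ATMG00020, at 152, 127 and 170 CPM in rdd YC4-R4 (0.24 ± 0.062, adjusted p = 0.0028). Its libraries overlapped with rdd control, and the call was lost without rdd YC4-R4 replicate 3 (0.13), with DESeq2 (0.23) and with the mitochondrial members as library size (0.07). Leaving out rdd YC4-R4 replicate 2, rdd control replicate 1 or rdd control replicate 3 raised the calls to 3, 2 and 2. Against Col-0 YC4-R4, rdd YC4-R4 had 2 members called higher and 0 lower, against 14.3% and 14.4% of all tested genes; these were 2 and 1 at an unadjusted p under 0.05, and DESeq2 called 1 and 0. ATMG00020 was higher without overlap (0.36 ± 0.062, adjusted p = 2.1e-05). ATMG01390, at 80.5, 71.7 and 113 CPM in rdd YC4-R4, overlapped (0.25 ± 0.083, adjusted p = 0.024), and its call was lost without rdd YC4-R4 replicate 3 (0.02), without Col-0 YC4-R4 replicate 2 (0.23) or 3 (0.23), in a fit of these groups alone (0.24) and with DESeq2 (0.24). Leaving out each of these 3 libraries in turn left 1 call. With the mitochondrial members as library size, where the median of all genes moved to -0.24, the counts were 0 higher and 2 lower, ATMG00020 stood at 0.10 and ATMG01390 at -0.03.

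The interaction was called positive for 3 of the 20 mitochondrial members and negative for 0, against 16.2% and 14.4% of all tested genes; 5 and 0 passed an unadjusted p of 0.05 and DESeq2 called 2 and 0. The highest was ATP synthase subunit 1, ATMG01190, at 1.31 ± 0.483 (adjusted p = 0.037). It stood at 0.409, 1.15 and 0.826 CPM in rdd control and 1.25, 0.748 and 1.44 CPM in rdd YC4-R4, which overlap, and neither single effect was called. This call was lost in 8 of the 12 fits that left out 1 library (lowest value 1.04, without rdd control replicate 1), with DESeq2 (1.34) and with the mitochondrial members as library size (0.53). The other calls were ATMG00020 (0.88 ± 0.088, adjusted p = 3.7e-10) and ATMG01390 (0.80 ± 0.116, adjusted p = 9.9e-07). With the mitochondrial members as library size, where the median of all genes moved to -0.76, 0 were called positive and 3 negative, and ATMG00020 (0.10) and ATMG01390 (0.01) were not among them.

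**Figure D4:**
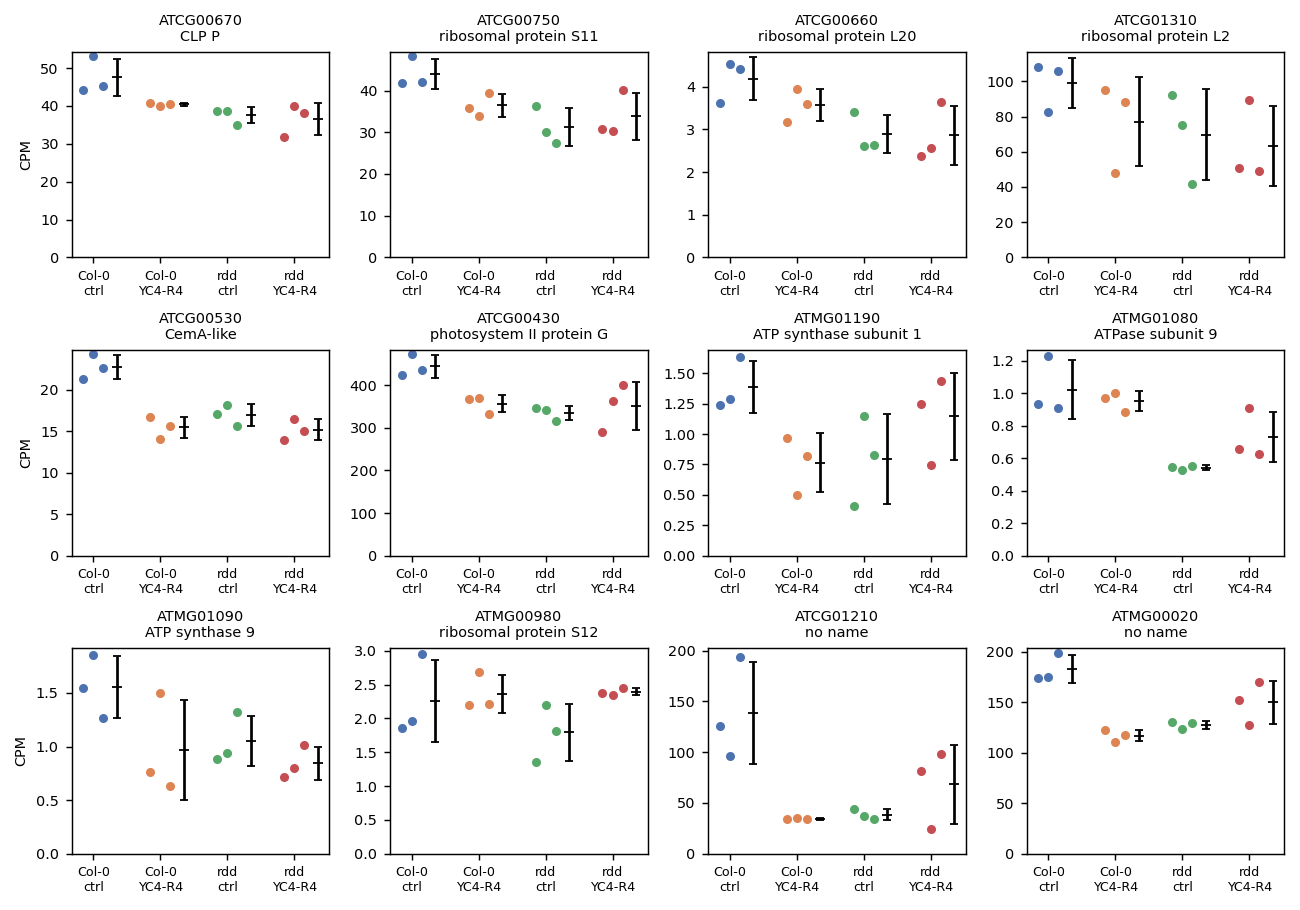
CPM per library of the 10 members with a name and of 2 without one (vertical axes from 0, each panel on its own scale). Points are libraries and bars are mean ± SD of the 3 libraries of a group. ATCG01210 stands at 96.4 to 194 CPM in Col-0 control and 33.9 to 35.6 CPM in Col-0 YC4-R4, and ATMG00020 at 174 to 199 and 111 to 122 CPM.

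The highest group mean lay in Col-0 control in 16 of the 20 mitochondrial members, and in 4 of 20 all Col-0 control libraries stood above all others, against 27.7% and 11.1% of all tested genes. In the chloroplast 39 of 95 members did so.

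Nuclear genes that serve the organelles were read beside these members; the lists were written with earlier results of these data known, and no test was run on a list or between a list and the members. Of all tested genes, 12.9% were called higher and 16.9% lower with YC4-R4 in Col-0, 15.1% and 17.1% with YC4-R4 in rdd, 20.9% and 23.0% in untreated rdd against Col-0, 14.3% and 14.4% between the YC4-R4 groups, and 16.2% and 14.4% for the interaction, and each count below is to be read against these shares. Of 20 genes of the plastid transcription machinery, 8 were called higher and 4 lower with YC4-R4 in Col-0. SIG5, a light- and stress-responsive sigma factor, was lowest by adjusted p (-0.85 ± 0.076, adjusted p = 1.6e-11), and SIG1 followed (-0.49 ± 0.047, adjusted p = 1.1e-10). In untreated rdd against Col-0, 13 were called lower and 0 higher, with SIG5 at -1.07 ± 0.077 and SIG1 at -0.70 ± 0.048. With YC4-R4 in rdd, 10 were higher and 0 lower, led by PTAC7, a subunit associated with the plastid polymerase (0.35 ± 0.049, adjusted p = 3.8e-07). Between the YC4-R4 groups 2 were higher in rdd and 6 lower, and the interaction was positive for 8 and negative for 1.

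Of 23 genes of plastid RNA processing and stability, 3 were called higher and 6 lower with YC4-R4 in Col-0, beside 12.9% and 16.9% of all tested genes. Among the lower ones were HCF173, which acts in translation of a photosystem II transcript (-0.48 ± 0.04, adjusted p = 3.5e-12), and the RNA-binding CSP41A (-0.26 ± 0.034, adjusted p = 1.6e-07). In untreated rdd, 17 were lower and 1 higher, with MRL1, a stabilizer of a chloroplast transcript, at -0.48 ± 0.041 (adjusted p = 3.9e-12). In rdd with YC4-R4, 13 were higher and 0 lower, led by CSP41B (0.34 ± 0.035, adjusted p = 9.9e-10) and the RNA-binding protein CP33 (0.35 ± 0.04, adjusted p = 8.5e-09). Between the YC4-R4 groups 4 were higher in rdd and 7 lower, and the interaction was positive for 11 and negative for 1.

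A nuclear list of the photosystems and of light harvesting had 30 genes. It also holds PETC of electron transport, ATPC1 and ATPD of the ATP synthase and RBCS1A of Rubisco. All 30 were called lower with YC4-R4 in Col-0 and in untreated rdd, as the majority of chloroplast members were. Their summed level was 95700 ± 2300 CPM (SD, n = 3) for Col-0 control, 76700 ± 803 for Col-0 YC4-R4, 74400 ± 2670 for rdd control and 71000 ± 470 for rdd YC4-R4. In rdd, 3 of the 30 were higher and 14 lower with YC4-R4, whereas 7 chloroplast members were higher and 2 lower. The 3 were PETC (0.20), RBCS1A (0.13) and ATPC1 (0.10), none of them a photosystem or light-harvesting gene. The summed level of the 30 differed little between the rdd YC4-R4 libraries, from 70400 to 71300 CPM, while the chloroplast share ran from 0.922% to 1.26%. Against Col-0 YC4-R4, 1 of the 30 was higher in rdd (PETC, 0.21) and 19 lower, and the interaction was positive for 25 and negative for 0. The antenna gene LHCB2.1 had the smallest adjusted p in each single comparison, at -0.67 ± 0.045, -0.42 ± 0.045, -0.76 ± 0.045 and -0.51 ± 0.045 in the order YC4-R4 in Col-0, YC4-R4 in rdd, rdd in control and rdd in YC4-R4. The part of this list's level in the chloroplast results was not tested.

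Of 23 genes of mitochondrial transcription and RNA processing, 6 were called higher and 0 lower with YC4-R4 in Col-0, beside 12.9% and 16.9% of all tested genes. Among the 6 were the RNA helicase PMH1 (0.32 ± 0.061, adjusted p = 9.7e-05) and the editing factor MORF8 (0.25 ± 0.048, adjusted p = 0.00013). In rdd 2 were higher and 3 lower, in untreated rdd against Col-0 3 and 1, between the YC4-R4 groups 0 and 4, and the interaction was positive for 1 and negative for 5. Of 27 nuclear respiratory genes, those called with YC4-R4 in Col-0 were 0 higher and 1 lower, 0 and 1 in rdd, 2 and 3 in untreated rdd and 0 and 4 between the YC4-R4 groups; the interaction had no call. Cytochrome c gene CYTC2 was lower in untreated rdd (-0.90 ± 0.082, adjusted p = 2.2e-11). Of 12 tested genes of the mitochondrial dysfunction response, 2 were higher and 3 lower with YC4-R4 in Col-0, with DIC2, a dicarboxylate carrier, at -2.47 ± 0.067 (adjusted p = 2.7e-26) and OM66, an outer membrane protein, at -2.33 ± 0.077 (adjusted p = 8.3e-24). In untreated rdd 2 were higher and 6 lower, in rdd with YC4-R4 3 and 1, between the YC4-R4 groups 1 and 4, and the interaction was positive for 3 and negative for 1.

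**Figure D5:**
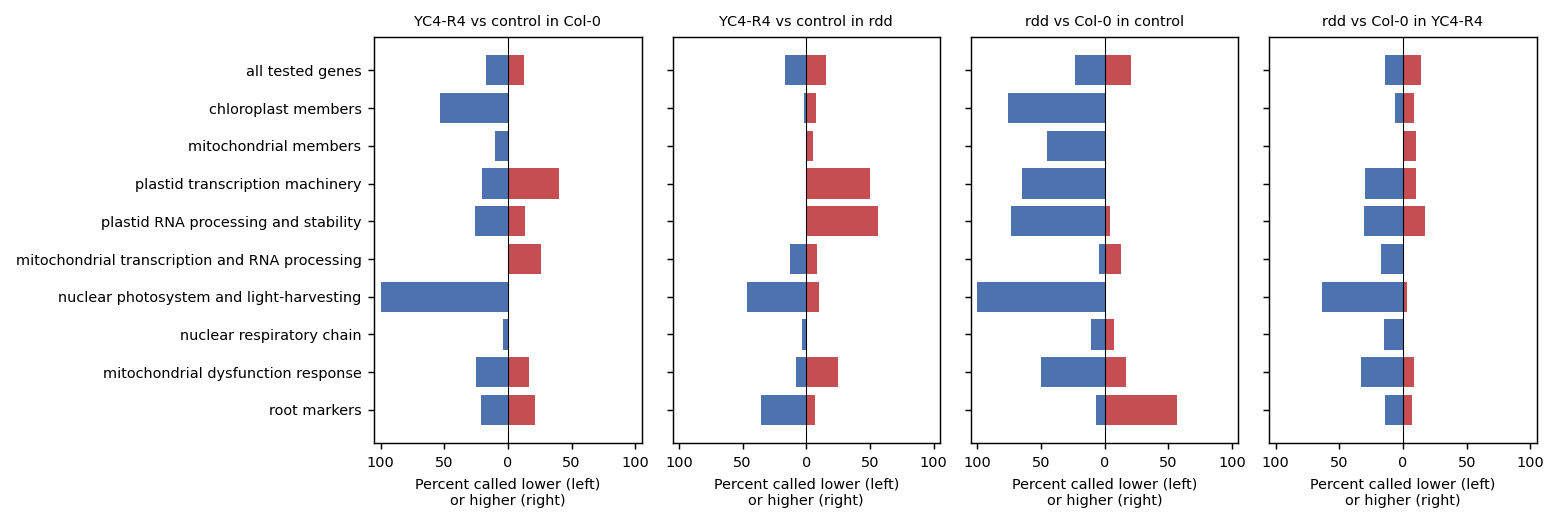
Percent of genes called higher (right, red) and lower (left, blue) at an adjusted p under 0.05 among all tested genes, the 95 chloroplast and 20 mitochondrial members and 7 nuclear lists, in 4 comparisons. All 30 genes of the nuclear photosystem and light-harvesting list are lower with YC4-R4 in Col-0 and in untreated rdd, beside 51 and 72 of the 95 chloroplast members.

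Root tissue, which holds few chloroplast transcripts, was read from 14 markers, none of them under 0.5 CPM in a group. Of these, 3 were called higher and 3 lower with YC4-R4 in Col-0, 1 and 5 in rdd, 8 and 1 in untreated rdd against Col-0 and 1 and 2 between the YC4-R4 groups. Their summed level, most of it PYK10, ran from 1240 to 1270 CPM for Col-0 control and from 1060 to 1120 CPM for rdd control. It was 1150 CPM for Col-0 YC4-R4 and 1090 to 1110 CPM for rdd YC4-R4. The sum was highest where chloroplast transcripts were highest, but it mainly reflects PYK10 (-0.152 with YC4-R4 in Col-0, -0.275 in untreated rdd). The count of markers went the other way in untreated rdd. The median log2 fold change of the 14 markers was 0.13 for YC4-R4 within Col-0 and -0.28 within rdd. For rdd against Col-0 it was 0.40 without treatment and 0.13 with YC4-R4. In each of these comparisons its sign was opposite to that of the chloroplast median, but the calls did not all follow that sign. They were 3 higher and 3 lower with YC4-R4 in Col-0, and 1 higher and 2 lower between the YC4-R4 groups. Some markers stood near 1 CPM, such as COBL9 (0.973 CPM in Col-0 control) and EXPA7 (0.933 CPM in Col-0 control). The part of root tissue in the chloroplast results was not tested.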

How the data were processed

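The deposited values are raw gene counts, in a table by library, and were used as such. Per the submitters' processing notes the build was TAIR10 and the tools included HTSeq 0.9.1, HISAT2 2.1.0 and Trimmomatic 0.36; per the labels' protocols the kit was a directional one. The sources used here give neither the strand nor the multiple-mapping setting. edgeR 4.0.16 in R 4.3.3 was run on all 20651 genes that filterByExpr kept, with TMM factors, 1 mean per group over all 12 libraries and 8 residual degrees of freedom; DESeq2 1.42.0 was an alternative. The threshold for calls was 0.05, on Benjamini-Hochberg adjusted p over all tested genes; errors of log2 fold changes are standard errors. The named members were the codes paired with a name and, per genome and comparison, the 2 highest and 2 lowest called members without overlap (any called member for the interaction). A longer fixed rule used gene symbols and lengths, which the sources used here do not pair with these codes, so levels of different genes are not compared and no sequence is shown. The members and nuclear lists were chosen with earlier results of these data known. TMM factors were 0.941 to 0.954 in Col-0 control and 1.00 to 1.04 elsewhere. Reads without molecular identifiers are not independent molecules. The test was checked on simulated data. Windows of 50, 100 and 150 bases of TAIR10.1 were searched for copies; no coordinates were used, since the builds differ. The edgeR and DESeq2 p-values set a difference against the spread between these libraries, and the exact p-values rank it among relabelings of them.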

Additional observations from a re-analysis of the deposited data

Results flagged for a closer look

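The effect of YC4-R4 differed between the genotype labels, by the interaction term of the edgeR fit, in 49 chloroplast members with a higher effect in rdd and 1 with a lower one, and in 3 mitochondrial members with a higher effect and 0 with a lower one. The percent of all tested genes called was 16.2% and 14.4%. In the chloroplast the difference was 2.85 for ATCG01210, 2.65 for ATCG00920 and -1.03 for ATCG01300 on the log2 scale. Of the members with a name it was 0.38 for ATCG00430, 0.40 for ATCG00530 and 0.41 for ATCG00750. In the mitochondrion it was 1.31 for ATMG01190 and 0.88 for ATMG00020. The call of ATCG01300 was lost with no filter (-1.02), with DESeq2 (-1.03) and in 7 of the fits that left out 1 library (-1.01 to -0.87). All of these differences use the Col-0 control libraries again, as the comparisons within Col-0 and within control do, so they are not independent of those. They also rest on the same 3 libraries labelled rdd YC4-R4, whose replicates differed more in chloroplast transcripts than those of any other group.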

How the results depend on the processing

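Direction and side of the threshold were compared under each alternative. With the genome's own members as library size, the called chloroplast members numbered 14 (YC4-R4 in Col-0), 28 (rdd in control), 8 (rdd in YC4-R4) and 16 (interaction), and the called mitochondrial members 0 (YC4-R4 in rdd) and 2 (rdd in control). On that scale ATCG00040 in Col-0 turned to 0.00627, ATCG00430 to 0.076 (interaction -0.012), ATCG00670 to 0.162 (0.029 for rdd in control) and ATCG00750 to 0.121 (interaction -0.000654), and ATMG01390 for rdd in YC4-R4 to -0.031. DESeq2's test called 4 (YC4-R4 in rdd), 2 (rdd in YC4-R4) and 30 (interaction) chloroplast members and 0, 5 and 1 mitochondrial ones (YC4-R4 in rdd, rdd in control, rdd in YC4-R4). With no filter the chloroplast calls were 23 (YC4-R4 in rdd) and 26 (rdd in YC4-R4), and in a fit of only the groups compared the mitochondrial calls for rdd in YC4-R4 were 1. With TMM effective library sizes the difference of the chloroplast share for YC4-R4 in rdd turned to -0.00049 percentage points. The cause of these shifts was not tested.

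Leaving out each library in turn gave 40 to 54, 7 to 27, 60 to 73, 6 to 28 and 31 to 61 called chloroplast members (YC4-R4 in Col-0, YC4-R4 in rdd, rdd in control, rdd in YC4-R4, interaction) and 2 to 3, 0 to 3, 5 to 9, 1 to 2 and 2 to 3 mitochondrial ones. The difference of the chloroplast share ran from -0.2738 to -0.2122, -0.0648 to 0.1047, -0.2645 to -0.1771 and -0.0555 to 0.1141 percentage points in the first 4 comparisons, and that of the mitochondrial share from -0.0101 to -0.0086, 0.0013 to 0.0056, -0.0088 to -0.0074 and 0.0026 to 0.0069. Over the 62 fold changes of single members, 64 of 456 such fits lost the call and none turned its sign. Only fold changes called in the full fit were included. Each such fit shares most libraries with the full fit, so a turn of sign was unlikely from the start.

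Replicate numbers are shared by the groups but did not pair the libraries: over 18 same-numbered pairs the correlation of deviations from the group means ran from -0.043 to 0.022. With a replicate block, all 10 counts of called members stayed within 1.5 times (50 and 71 chloroplast members for YC4-R4 in Col-0 and rdd in control). DESeq2 size factors within edgeR moved no count beyond that. A share of each code's own sequence found elsewhere could not be computed, as the codes were not placed on the reference, so copies were counted per genome; with windows of 50 and 150 bases 71.081% and 65.659% of mitochondrial windows and 35.433% and 33.948% of chloroplast windows had a copy in any of the genomes. Of the 20 mitochondrial members 18 had under 10 CPM, and which sizes of change can be called at that depth was not measured.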
